A study of Mus musculus with 47 samples.

Results

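The 8 genes described here mark the tissue that lines and fills the brain ventricles, and they were followed library by library through a mouse series of chemically induced loss and repair of myelin. They were taken by symbol: Ttr, 1500015O10Rik, Kl, Folr1 and Clic6 for choroid plexus, and Foxj1, Tmem212 and Ccdc153 for ependyma. All 8 were present in both data tables, which held 21061 rows for the chronic and 23420 rows for the acute experiment, and all 8 passed the filters on low values, among 17054 chronic and 14536 acute genes tested. Wild-type C57BL/6 mice of both sexes were fed chow with cuprizone (CPZ), a copper chelator that kills oligodendrocytes, for 12 weeks and then returned to normal chow for 0, 4, 8 or 12 weeks, groups written as 12, 12 + 4, 12 + 8 or, for the longest, 12 + 12. Corpus callosum, hippocampus and cortex were dissected by hand, and bulk RNA was sequenced in 40 chronic libraries. Naïve controls, labelled as 8 months old, gave 3 callosal, 3 hippocampal and 4 cortical libraries, and the fed groups gave 2 or 3 libraries each. In order of recovery, these were 2, 2, 3 and 2 libraries in callosum, hippocampus had 3, 3, 2 and 2, and cortex had 3, 3, 3 and 2. The 12 + 12 libraries of all 3 regions were labelled female. Mice at 12 weeks were younger than the naïve mice by the feeding schedule, so age and feeding cannot be told apart in that comparison. By the same schedule mice with recovery were older than those at 12 weeks, so age and recovery cannot be told apart either. The acute experiment was of callosum alone, with 1 naïve library from a mouse 2 months old, 3 libraries after 3 weeks of CPZ and 3 after 5 weeks of CPZ and 1 week of recovery (5 + 1). Age differed between these groups too, with the oldest mice at 5 + 1 and the youngest naïve by the schedule. The labels do not say which libraries came from the same mouse, and p-values measure the spread between libraries.

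In GENCODE vM21 (GRCm38, the build the reads were aligned to), Ttr lies at chr18:20665280-20674321, 1500015O10Rik at chr1:43730602-43742578, Kl at chr5:150952607-150993817 and Folr1 at chr7:101858331-101870788. Clic6 lies at chr16:92485736-92541243, Foxj1 at chr11:116330704-116335399, Tmem212 at chr3:27866066-27896368 and Ccdc153 at chr9:44240676-44247306. Every value below is one per whole gene. Folr1 overlaps Anapc15 on the other strand and Clic6 overlaps 2410124H12Rik on the same strand, so reads from the shared stretches of Clic6 cannot be told apart. The labels name a kit that keeps strand, but the counting step is not given in the sources used here.

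The choroid plexus is a folded epithelium inside the ventricles that secretes cerebrospinal fluid, and the ependyma is the ciliated cell sheet that lines the ventricle walls and moves the fluid. Transthyretin (Ttr) carries thyroxine and is made in very large amounts by choroid plexus. Folr1 is a folate receptor that passes folate into the fluid, Kl (klotho) is a membrane protein that acts with fibroblast growth factor receptors and is also made by some neurons, Clic6 belongs to the chloride intracellular channel family, and 1500015O10Rik (Ecrg4) encodes a secreted peptide precursor. Foxj1 is the transcription factor that turns on the genes of motile cilia, and Tmem212 and Ccdc153 are genes of ciliated ependymal cells. Neither tissue is part of callosum, hippocampus or cortex, but both lie next to callosum and hippocampus, so a piece cut by hand may carry some of either.

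The tables of promoters used here matched 4 of the 8 genes. The windows of Tmem212 and Ccdc153, whose values had the highest correlation of the 3 ependymal pairs over all 40 chronic libraries (r = 0.969), and of 1500015O10Rik, whose correlations with the other genes differed by region, are shown from 250 bases before to 50 bases after the RefSeq start (GRCm38.p6, 5′ to 3′ on the gene's strand), at chr3:27896319-27896618 (minus strand), chr9:44240427-44240726 (plus strand) and chr1:43730352-43730651 (plus strand). Capitals mark GTTGCC, part of the X-box that RFX factors bind, and both GTTGCC and the forkhead motif TGTTTAC were searched on both strands.
Tmem212: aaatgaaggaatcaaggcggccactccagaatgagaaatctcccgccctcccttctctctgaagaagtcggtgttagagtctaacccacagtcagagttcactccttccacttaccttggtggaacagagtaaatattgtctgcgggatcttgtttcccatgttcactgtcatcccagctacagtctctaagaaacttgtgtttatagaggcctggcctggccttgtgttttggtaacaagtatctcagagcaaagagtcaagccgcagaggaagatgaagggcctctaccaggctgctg
Ccdc153: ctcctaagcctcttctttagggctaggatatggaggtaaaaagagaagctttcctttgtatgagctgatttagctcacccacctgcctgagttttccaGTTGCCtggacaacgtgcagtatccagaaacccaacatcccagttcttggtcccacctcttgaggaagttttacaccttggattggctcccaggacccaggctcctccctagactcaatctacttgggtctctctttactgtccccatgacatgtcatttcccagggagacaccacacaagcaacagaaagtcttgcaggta
1500015O10Rik: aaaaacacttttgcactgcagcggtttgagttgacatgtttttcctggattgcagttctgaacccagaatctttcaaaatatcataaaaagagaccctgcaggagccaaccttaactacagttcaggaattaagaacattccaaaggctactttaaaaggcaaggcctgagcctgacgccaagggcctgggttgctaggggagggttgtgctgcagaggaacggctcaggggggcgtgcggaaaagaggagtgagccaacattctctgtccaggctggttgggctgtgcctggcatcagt
GTTGCC was found in the Ccdc153 window, on the plus strand with its first base at position -152 from the start, and in none of the windows of Tmem212, 1500015O10Rik and Kl. Of all 32851 promoter windows of the same length, 12.5% held GTTGCC and 3.65% held TGTTTAC, which was in none of the 4 windows.

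Several libraries stood apart before any comparison was made. In 8 of 13 hippocampal libraries Xist, made from the inactive X chromosome of females, and the Y-linked Ddx3y were both at intermediate values, from -2.37 to -1.23 for Xist and from 0.63 to 0.83 for Ddx3y, while in the other 5 Xist was at 2.14 to 2.49 and Ddx3y at -2.02 to -1.62. These 8 were 12 weeks replicates 1 and 3, 12 + 4 replicates 1 and 3, both 12 + 8 libraries, 12 + 12 replicate 1 and naïve replicate 3. Smaller departures were found in libraries labelled female of the other regions. Ddx3y was at -0.14 in callosal 12 + 4 replicate 2 and -0.69 in 12 + 8 replicate 1, against -2.02 to -1.67 in the other female callosal ones. Xist was at 0.76 in cortical 12 + 8 replicate 1, against 2.38 to 3.18 in the other female cortical ones. Hippocampal 12 weeks replicate 1 and naïve replicate 3 shared 252 identical values above the lowest value of the gene, and the other 779 pairs of libraries shared none. Values of callosum and hippocampus carried an extra final digit of 5 in 43.5% and 43.6% of cases, as a mean of a pair of numbers would, and cortical values in 0%. Whether a library of callosum or hippocampus stands for 1 mouse is not given in the sources used here, so n, SE and p in these regions may not count separate mice. The median of 8 hippocampal marker genes was 0.03 in hippocampal 12 + 8 replicate 2 and -0.30 in 12 + 12 replicate 1, against 1.23 to 2.11 in the other 11, and was 0.98 in cortical naïve replicate 3 and 0.61 in cortical 12 + 12 replicate 2, against -1.504 to -0.34 in the other 13 cortical libraries. Of the 8 libraries with intermediate sex-linked genes, 4 were labelled female (replicate 1 of each fed group) and 4 male, and the other 5 were all labelled female. In callosum 8 of 8 oligodendrocyte genes were lower at 12 weeks than in naïve libraries (limma, median difference -1.42, where 9.65% of all genes were lower), and their median was -0.51 and -0.41 at 12 weeks, below the 3 naïve libraries (0.38 to 1.51). In the same comparison 0 of the 8 passed in hippocampus (median difference -0.60) and 0 in cortex (-0.27), where few genes of any kind did (0.0176% and 0.956%).

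In hippocampus, the 5 choroid plexus genes differed widely between libraries of the same group, and the same 5 libraries were high for all 5 genes. Chronic values are log2 values centred per gene, so they show differences between libraries and not levels between genes. Ttr was at 0.20, -0.11 and 3.31 in naïve hippocampus, 3.57, -0.35 and 0.40 at 12 weeks, 1.35, 3.84 and 6.80 at 12 + 4, 2.86 and -1.09 at 12 + 8, and 0.52 and 1.18 at 12 + 12. A single library of the naïve, the 12-week and the 12 + 8 groups and a pair at 12 + 4 therefore stood high, and all 5 of these were above the other 8, with a gap from 1.35 to 2.86. Folr1 was at -0.12, -0.31 and 1.47 in naïve hippocampus, 1.46, -0.44 and -0.14 at 12 weeks, -0.02, 1.62 and 3.32 at 12 + 4, 1.07 and -0.68 at 12 + 8, and 0.29 and 0.29 at 12 + 12. The same 5 libraries were the highest for Folr1. For 1500015O10Rik the 5 libraries were at 1.39, 1.62, 1.71, 3.21 and 1.42 (naïve, 12, 12 + 4, 12 + 4 and 12 + 8) and the other 8 lay between -0.79 and 0.16. The same 5 were the highest for Clic6, with 1.35, 1.30, 1.42, 3.18 and 0.72 in the same order of groups and -0.81 to 0.01 in the others. Other genes of the choroid plexus stood high in the same pieces: the median of 27 further genes was 0.97, 0.98, 1.12, 2.23 and 0.85 in these 5 libraries and -0.43 to 0.17 in the other 8. Of the 5, all but 12 + 4 replicate 2 were among the libraries with intermediate sex-linked genes, and the high values of naïve replicate 3 and 12 weeks replicate 1 came from the pair with shared values.

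Kl stood apart from the other choroid plexus genes in hippocampus by a floor. It was at 1.21 to 1.33 in 6 libraries in which the other 4 genes were low, at 2.14 to 3.68 in the 5 libraries with high Ttr, and at -0.22 and 0.32 in 12 + 8 replicate 2 and 12 + 12 replicate 1, the libraries with low hippocampal markers. In cortex the same gene was at 0.26 and 0.40 in the 2 libraries with raised hippocampal markers, at 1.04 in 12 + 8 replicate 2, and at -1.5002 to -0.54 in the other 12. Kl was thus higher where markers of hippocampal neurons were higher as well as where choroid plexus genes were higher, and the part of each was not tested. In bulk tissue, fewer cells of a type and less RNA per cell cannot be told apart.

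**Figure D1:**
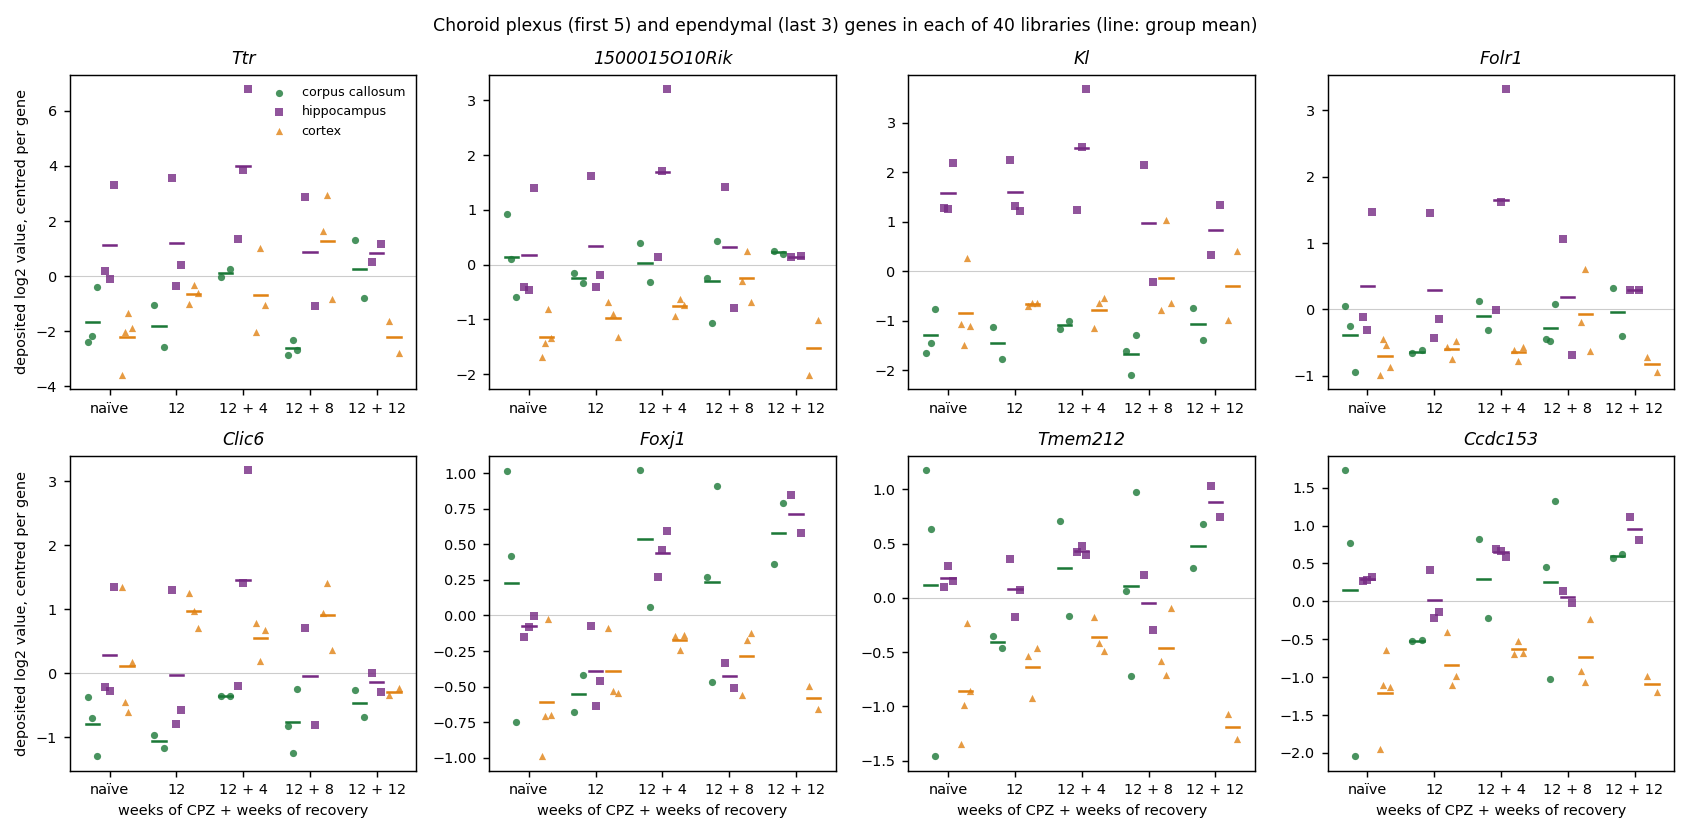
Deposited log2 value, centred per gene (y axis), of the 8 genes in each of 40 chronic libraries by weeks of CPZ and recovery (x axis), with 1 point per library, a line at each group mean and a colour and shape for each region. Hippocampal Ttr, 1500015O10Rik, Kl, Folr1 and Clic6 show 1 library far above the rest at 12 + 4 weeks (6.80 for Ttr), and callosal Tmem212 and Ccdc153 show 1 naïve library far below the others (-1.46 and -2.04).

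The ependymal genes differed less between hippocampal libraries of 1 group than between callosal ones. In hippocampus Ccdc153 was at 0.27, 0.29 and 0.32 in naïve libraries, 0.41, -0.22 and -0.14 at 12 weeks, 0.69, 0.66 and 0.58 at 12 + 4, 0.13 and -0.03 at 12 + 8, and 1.11 and 0.81 at 12 + 12, so that the 5 libraries with high Ttr were not its highest over all groups. Within groups, the library with high Ttr was the highest for Ccdc153 in the naïve (0.32), 12-week (0.41) and 12 + 8 (0.13) groups. At 12 + 4 those with high Ttr (0.66 and 0.58) were below the other (0.69). In callosum Ccdc153 was at 1.73, 0.77 and -2.04 in naïve libraries, -0.53 and -0.50 at 12 weeks, 0.82 and -0.22 at 12 + 4, 0.45, -1.02 and 1.33 at 12 + 8, and 0.58 and 0.63 at 12 + 12. The naïve callosal libraries thus spanned a 13.7-fold range on this scale and held both the highest and the lowest of the 12 values. Tmem212 was at 1.18, 0.63 and -1.46 and Foxj1 at 1.01, 0.42 and -0.75 in the same naïve libraries, with replicate 3 again the lowest of all 12 for both genes. That library was also the highest callosal library for meningeal and fibroblast genes (median of 9 genes 0.85, against -0.90 to -0.02 in the other 11). Striatal neuron genes were set beside the ependymal genes in callosum without a test. The striatal median was 1.44 in naïve replicate 1, 0.92 in naïve replicate 2, 1.71 in 12 + 8 replicate 3 and 0.46 in 12 + 4 replicate 1. The ependymal median was 1.18, 0.63, 0.98 and 0.82 in these libraries. In the other 8 the striatal median was -1.04 to -0.19 and the ependymal median -1.46 to 0.68, so the ependymal medians overlapped. The part of these other cell types in the ependymal values was not tested.

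Ttr in callosum did not follow the ependymal genes. It was at -2.39, -2.18 and -0.41 in naïve libraries, -1.05 and -2.59 at 12 weeks, -0.02 and 0.26 at 12 + 4, -2.85, -2.30 and -2.66 at 12 + 8, and 1.30 and -0.79 at 12 + 12. The naïve library that was lowest for the 3 ependymal genes was therefore the highest naïve library for Ttr, and the 12 values fell on either side of a gap from -2.18 to -1.05, with 6 on each side. Kl was highest in 12 + 12 replicate 1 and naïve replicate 3 (-0.75 and -0.77). In cortex Ttr was at -3.59, -2.03, -1.34 and -1.87 in naïve libraries, -1.004, -0.33 and -0.62 at 12 weeks, -2.02, 1.03 and -1.06 at 12 + 4, 1.65, 2.96 and -0.83 at 12 + 8, and -1.61 and -2.78 at 12 + 12. Cortical 12 + 8 replicate 2 was the highest cortical library for Ttr, 1500015O10Rik (0.25), Kl (1.04), Folr1 (0.60) and Clic6 (1.41). The same library had the highest cortical median of the further choroid plexus genes (0.60, against -0.54 to -0.13 in the other 14) and of neuroblast genes (1.09, against -0.22 to 0.65).

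Expressed as the standard deviation (SD) between libraries of 1 group, in the fit of all 40 libraries, the spread was 1.56 for Ttr, 0.80 for 1500015O10Rik, 0.79 for Clic6, 0.74 for Kl, 0.73 for Folr1, 0.72 for Ccdc153, 0.54 for Tmem212 and 0.41 for Foxj1, against a median of 0.16 over all 17054 genes. Ttr ranked behind Xist, Ddx3y and Eif2s3y alone, and 0.106% to 2.05% of genes had a larger SD than each of the other 7. Without the 8 hippocampal libraries with intermediate sex-linked genes, the SD was 1.11 for Ttr, 0.48 for 1500015O10Rik, 0.49 for Clic6 and 0.35 for Folr1. Within hippocampus alone the SD was 2.20 for Ttr and 0.97 to 1.22 for the other 4 choroid plexus genes, but 0.19 to 0.21 for the 3 ependymal genes, still above the hippocampal median of 0.10 over all genes, with 9.93% to 13.5% of genes having a larger SD. Within callosum it was 1.26 for Ccdc153, 0.91 for Tmem212 and 0.67 for Foxj1, beside 0.92 for Ttr and 0.38 to 0.60 for the other choroid plexus genes. In cortex Ttr had 1.27 and the other 7 genes had 0.28 to 0.71.

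**Figure D2:**
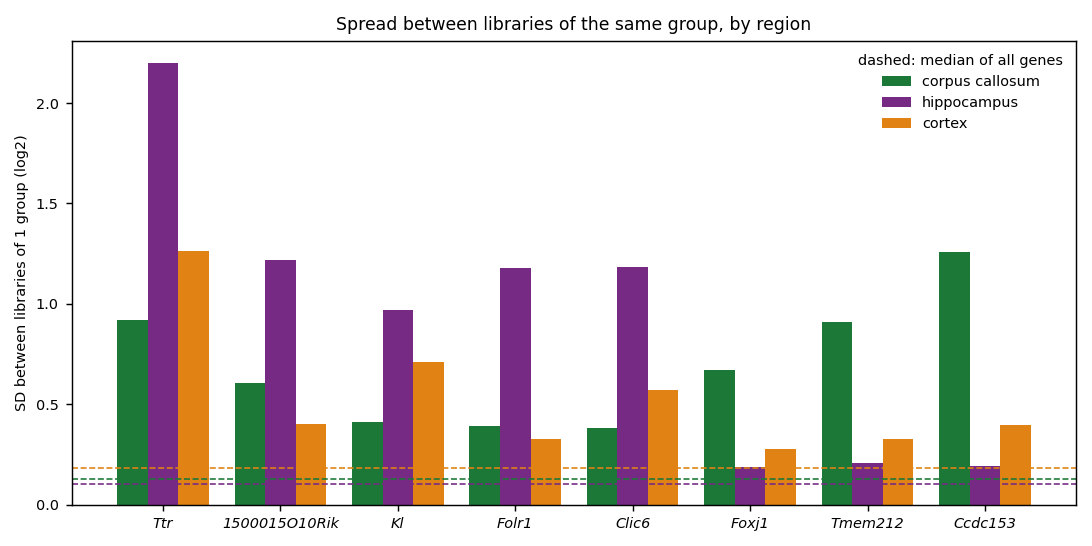
SD between libraries of 1 group (y axis, log2 units) for each of the 8 genes (x axis) in callosum, hippocampus and cortex, with the median over all genes of each region as a dashed line. Hippocampal bars are tallest for the 5 choroid plexus genes (2.20 for Ttr) and for each of the 3 ependymal genes the callosal bar is the tallest of the 3 regions (1.26 for Ccdc153).

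Whether the genes of 1 tissue varied together was tested for 3 pairs in each region, 9 relations in all, with a permutation p for each and adjustment by Benjamini-Hochberg over the 9. In hippocampus, Ttr and Folr1 had a Pearson r of 0.989 (permutation p = 1e-05, the smallest that 100000 permutations can give, adjusted 4.5e-05) and a Spearman rho of 0.973 (permutation p = 1e-05, adjusted 4.5e-05) over 13 libraries. Without the 2 libraries farthest from the median of Ttr r was 0.974, and within the 8 libraries below the gap in Ttr it was 0.86 (exact permutation p = 0.0076), with rho 0.905 (exact permutation p = 0.0046). The 5 above the gap are too few for a value. Over all 13 but the pair with shared values r was 0.988, and without the 2 hippocampal libraries with low hippocampal markers it was 0.992 (permutation p = 1e-05 each). In cortex Ttr and Folr1 had r = 0.784 (permutation p = 0.00079, adjusted 0.0014) and rho = 0.504 (permutation p = 0.058, adjusted 0.087) over 15 libraries. Without 12 + 8 replicates 1 and 2, the farthest from the median of Ttr, r was 0.385 (permutation p = 0.19, adjusted 0.29). It was 0.716 (exact permutation p = 0.062), with rho 0.536 (exact permutation p = 0.24), in the 7 cortical libraries with lower Ttr, and 0.78 (exact permutation p = 0.029), with rho 0.333 (exact permutation p = 0.43), in the 8 with higher Ttr. In callosum r was 0.225 (permutation p = 0.48, adjusted 0.54) and rho 0.231 (permutation p = 0.47, adjusted 0.53) over 12 libraries, and it was 0.094 (exact permutation p = 0.85) and 0.751 (exact permutation p = 0.083) in the 6 libraries below and the 6 above the gap in callosal Ttr.

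Foxj1 and Tmem212 were correlated in all 3 regions. Pearson r was 0.937 in callosum (permutation p = 2e-05, adjusted 6e-05), 0.908 in hippocampus (permutation p = 1e-05, adjusted 4.5e-05) and 0.817 in cortex (permutation p = 0.00033, adjusted 0.00074), and rho was 0.958 (permutation p = 1e-05), 0.918 (permutation p = 3e-05) and 0.743 (permutation p = 0.0022). Without the 2 libraries farthest from the median of Foxj1 r was 0.961, 0.909 and 0.726. After the group means were subtracted, r was 0.967, 0.765 and 0.767 (permutation p of 1e-05, 0.0024 and 0.0011, adjusted 4.5e-05, 0.0043 and 0.0034), and rho was 0.951, 0.687 and 0.554 (permutation p of 1e-05, 0.012 and 0.035), of which that of cortex did not pass adjustment (adjusted p of 4.5e-05, 0.022 and 0.053). For Ttr and Folr1 the same step gave r of -0.188 in callosum, 0.989 in hippocampus and 0.621 in cortex (permutation p of 0.56, 1e-05 and 0.013, adjusted 0.61, 4.5e-05 and 0.02), with rho of -0.175, 0.995 and 0.40 (adjusted permutation p of 0.63, 4.5e-05 and 0.18). Ttr and Foxj1, one gene of each tissue, gave r of -0.02 in callosum (permutation p = 0.95), 0.456 in hippocampus (permutation p = 0.12) and 0.423 in cortex (permutation p = 0.12), with adjusted p of 0.95, 0.15 and 0.15, and rho of -0.056 (permutation p = 0.87), 0.637 (permutation p = 0.022, adjusted 0.039) and 0.379 (permutation p = 0.16). After the group means were subtracted, r for Ttr and Foxj1 was -0.681 in callosum (permutation p = 0.015, adjusted 0.02) 0.775 in hippocampus (permutation p = 0.0019, adjusted 0.0043) and 0.145 in cortex (permutation p = 0.61, adjusted 0.61). The residuals of Ttr and Foxj1 therefore correlated with opposite signs in callosum and hippocampus, and the difference between those correlations was not tested. Residuals within a group cancel out and so are not independent, but the permutations treated them as if they were. All p-values on residuals may therefore be too small, and whether these correlations pass is left undecided.

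The remaining pairs are given as a description. By the study's methods the libraries of a region were sequenced on the same instrument. The methods give a range of reads per sample, but the depth of each library is unknown here. In hippocampus the 10 pairs of choroid plexus genes had r of 0.886 to 0.993 and the 15 pairs across tissues 0.119 to 0.478. After the group means were subtracted, these ranges were 0.874 to 0.995 and 0.209 to 0.833. Of the pairs across tissues, those with Foxj1 then had 0.575 to 0.833. In callosum 1500015O10Rik, Folr1 and Clic6 had r of 0.797 to 0.88 with the 3 ependymal genes, and of 0.045 to 0.317 with Ttr, while Kl had 0.805 with Ttr and -0.125 to -0.016 with the ependymal genes. With group means subtracted, the first 3 genes had 0.736 to 0.942 with the ependymal genes and -0.429 to -0.188 with Ttr. Kl then had 0.762 with Ttr and -0.301 to -0.271 with the ependymal genes. The 5 genes named for choroid plexus thus varied together in hippocampus and less so in callosum, a difference that was not tested. In cortex Clic6 had r of 0.344 with Ttr and -0.165 to 0.04 with the ependymal genes, and, on residuals, -0.215 and -0.755 to -0.457.

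**Figure D3:**
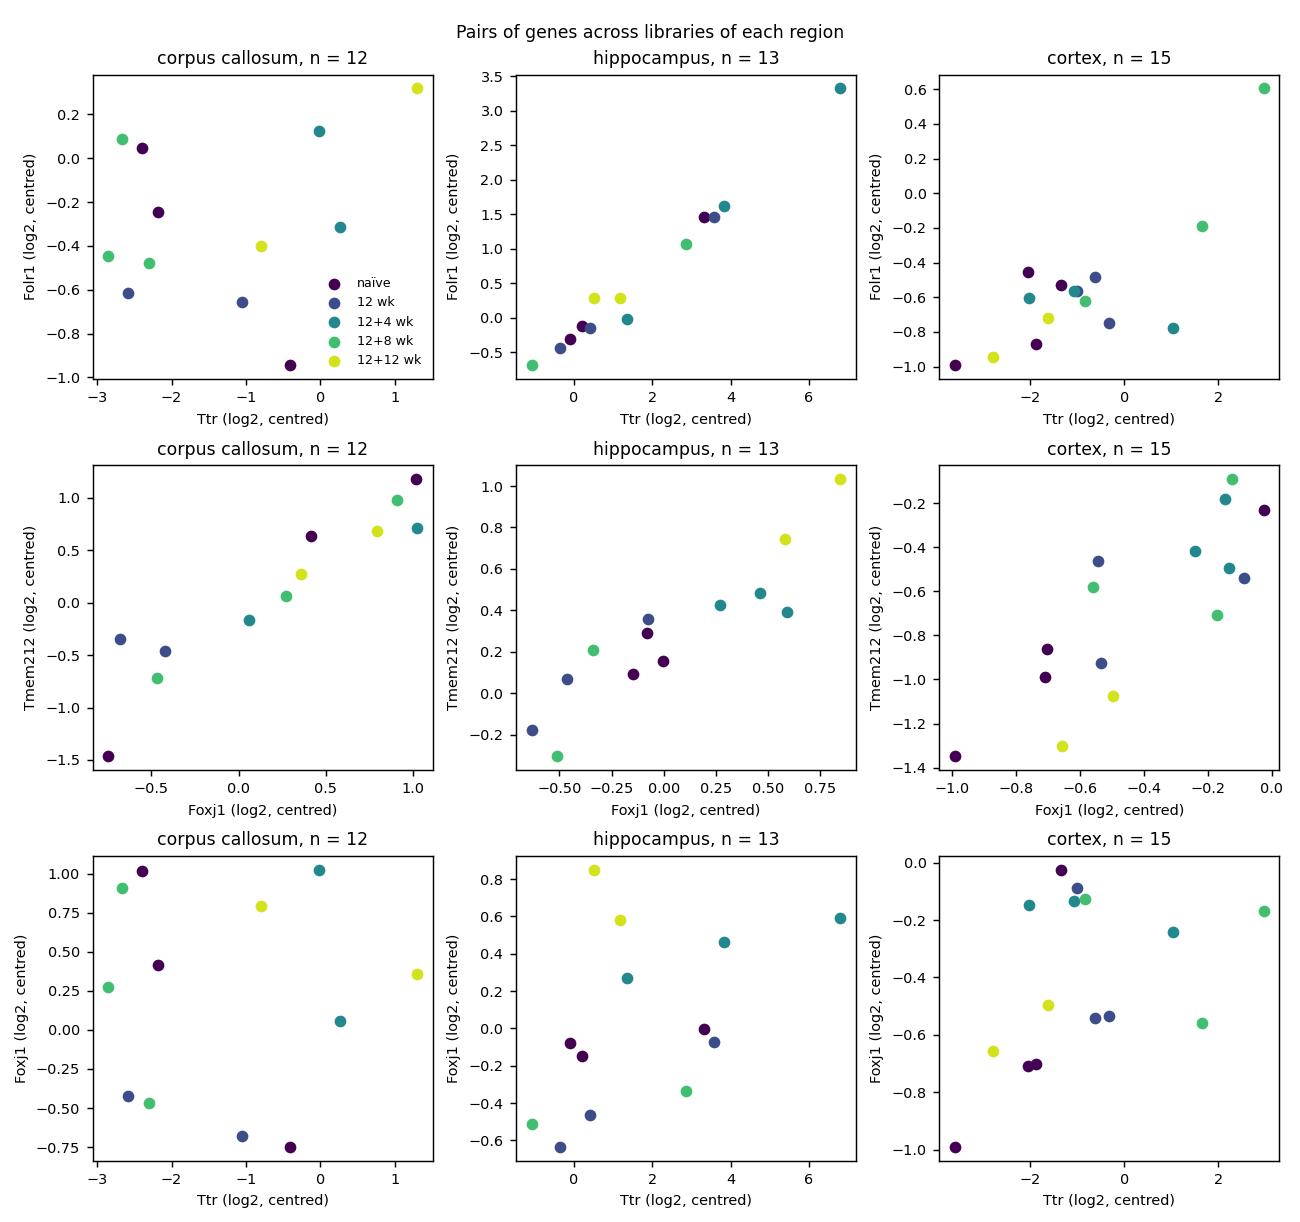
Deposited log2 values of pairs of genes (Ttr and Folr1, Foxj1 and Tmem212, Ttr and Foxj1 from top to bottom) in callosum, hippocampus and cortex (left to right), with 1 point per library coloured by group. Hippocampal Ttr and Folr1 lie close to 1 line (r = 0.989), Foxj1 and Tmem212 do so in every region (r = 0.817 to 0.937), and callosal Ttr and Foxj1 do not (r = -0.02).

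Genes most like Ttr and Foxj1 were ranked by the Pearson correlation of residuals from the group means over the 40 chronic libraries, without a test. For Ttr these were Wfdc2 (0.887), Kcne2 (0.868), Kcnj13 (0.865), Prr32 (0.861), Slc4a5 (0.837), Aqp1 (0.821), Tmem237 (0.81), Tmem72 (0.807), Wdr86 (0.802) and Folr1 (0.797). Aqp1 is a water channel, Slc4a5 a bicarbonate transporter, and Kcne2 and Kcnj13 potassium channel subunits, all known from choroid plexus epithelium. For Foxj1 they were Cd24a (0.954), Cfap161 (0.934), Lrrc23 (0.923), Tmem212 (0.921), Ttc21a (0.92), Ak7 (0.918), Ccdc153 (0.917), Cfap43 (0.916), Ppp1r32 (0.903) and Mia (0.9). Cfap161, Cfap43, Lrrc23 and Ak7 encode parts of or factors for motile cilia, and Cd24a, a surface protein, is made by ependymal cells as well as neuroblasts. Only 9 genes passed 0.8 with Ttr and 84 with Foxj1. Of the 10 genes for Ttr, 3 were among the 10 most like it within hippocampus, 0 within callosum and 0 within cortex, and of those for Foxj1 the counts were 0, 2 and 1. The 10 most like Ttr within callosum (Cbr1 and Ppic first) and within cortex (Sox18 first) held no listed choroid plexus gene. Those within hippocampus held several, with 1500015O10Rik first.

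The effect of CPZ was asked by setting 12 weeks against naïve in each region. In callosum all 8 genes were lower at 12 weeks, from -0.78 ± 0.35 (SE, log2) for Foxj1 to -0.16 ± 1.32 for Ttr, and 0 of 8 passed an adjusted p under 0.05 (limma, adjusted over all genes), in a comparison where 18.7% of genes did. Of the 8, 1 (Foxj1, adjusted p = 0.122 by limma) had an unadjusted p under 0.05, as 31.6% of all genes did. Its SE used the SD of the fit of all 40 libraries (0.41), below that within callosum (0.67), so SE and p may be too small. Without callosal naïve replicate 3 the differences were -1.27 ± 0.32 for Foxj1, -1.31 ± 0.36 for Tmem212 and -1.77 ± 0.45 for Ccdc153, and all 3 passed (limma adjusted p of 0.00837, 0.0134 and 0.0096), with 15.2% of all genes, so the call for the ependymal genes depended on that library. In hippocampus 0 of 8 passed (0.0176% of all genes did), 0 had an unadjusted p under 0.05 (3.59% of all genes had), and differences lay between -0.31 for Foxj1 and 0.17 for 1500015O10Rik. In cortex 0 of 8 passed (0.956% of all genes did), 0 had an unadjusted p under 0.05 (16.8% of all genes had), and all 8 differences were above 0, from 0.11 for Folr1 to 1.56 ± 1.11 for Ttr, whose 95% interval ran from -0.70 to 3.82. Cortical Ttr was the 1 gene of the 8 whose 3 libraries at 12 weeks all lay above the 4 naïve ones, as those of 4.94% of all genes did.

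Recovery was set against 12 weeks. In callosum 0 of 8 genes passed at 12 + 4, 12 + 8 and 12 + 12, where 0.809%, 0.756% and 4.22% of all genes did, and at each time Foxj1 was the only gene of the 8 with an unadjusted p under 0.05, beside 11.1%, 7.68% and 15.8% of all genes. Its differences were 1.09 ± 0.38, 0.79 ± 0.35 and 1.13 ± 0.38 (limma adjusted p of 0.208, 0.57 and 0.1). The SD of each ependymal gene was larger within callosum than in the fit of all 40 libraries (0.67 against 0.41 for Foxj1). Their SE and p may therefore be too small here. The libraries of 12 + 4 and of 12 + 12 lay above both 12-week libraries for 6 and 7 of the 8 genes, with 2 libraries on each side, and 25.1% and 24.3% of all genes did the same. At 12 + 8 this held for Folr1 alone of the 8, and for 14.3% of all genes. Differences of Ttr were 1.94 ± 1.45, -0.79 ± 1.32 and 2.07 ± 1.45 and those of Ccdc153 were 0.82 ± 0.67, 0.77 ± 0.61 and 1.12 ± 0.67. In quantile-normalized values Foxj1 passed at 12 + 4 and 12 + 12 (1.30 and 1.29, limma adjusted p of 0.0439 and 0.037), where 4.66% and 6.34% of all genes passed.

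In hippocampus 0 of 8 genes passed at 12 + 4 (0.041% of all genes), at 12 + 8 (0% of all genes) or at 12 + 12 (2.57% of all genes). An unadjusted p under 0.05 was found for 5, 0 and 1 genes, beside 4.4%, 8.31% and 15.1% of all genes. The fit of all 40 libraries gave each gene 1 SD for all regions. For each choroid plexus gene the SD within hippocampus was larger (2.20 against 1.56 for Ttr), so SE and p for these genes may be too small here. At 12 + 4 every gene was above 12 weeks, by 2.79 ± 1.18 for Ttr, 1.49 ± 0.60 for Clic6, 1.35 ± 0.55 for Folr1, 1.34 ± 0.61 for 1500015O10Rik and 0.83 ± 0.31 for Foxj1 (limma adjusted p of 0.982, 0.906, 0.924, 1 and 0.817). The choroid plexus groups overlapped, since 12 + 4 replicate 1 lay below 12 weeks replicate 1 for each of the 5 genes, while the 3 ependymal genes lay higher in every 12 + 4 library, as 8.37% of all genes did. At 12 + 12 the ependymal genes were higher by 1.11 ± 0.35 for Foxj1, 0.80 ± 0.46 for Tmem212 and 0.94 ± 0.61 for Ccdc153 (limma adjusted p of 0.0878, 0.419 and 0.501), with both libraries above all 3 at 12 weeks, as for 22.3% of all genes. Fitted on hippocampal libraries alone, where the SD of these genes was smaller, the same differences passed, with limma adjusted p of 0.00201, 0.0125 and 0.00501, in a fit where 13.2% of all genes passed. Without 12 + 12 replicate 1 a single 12 + 12 library remained, assumed to vary like the other groups, and the differences were 0.97 ± 0.45 for Foxj1, 0.66 ± 0.59 for Tmem212 and 0.79 ± 0.79 for Ccdc153 (limma adjusted p of 0.622, 0.873 and 0.883), where 0.0997% of all genes passed. That library had low hippocampal markers (median -0.30), and an oligodendrocyte median of 0.55, against 0.14 in replicate 2 and -1.30 to 0.04 in the other 11. The part of these differences in the ependymal values was not tested.

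In cortex 0 of 8 genes passed at 12 + 4, 12 + 8 or 12 + 12, where 0.0528%, 0.123% and 4.69% of all genes did, and 0 had an unadjusted p under 0.05 in each, beside 7.69%, 11.5% and 21.9% of all genes. Ttr differed by -0.03 ± 1.18, 1.91 ± 1.18 and -1.55 ± 1.32, and its 12 + 12 libraries lay below all 3 at 12 weeks, as did those of Clic6 (-1.27 ± 0.67), Tmem212 (-0.55 ± 0.46) and 18.8% of all genes. With library weights Ttr and Kl passed at 12 + 8 (3.49 and 1.65, limma adjusted p of 0.00954 and 0.00432), in a fit where 23.3% of all genes passed. Of 27 further choroid plexus genes 0 passed in any of the 12 comparisons of time points. Of 32 further ependymal and cilium genes tested (34 listed) 1 passed, Ccdc39, a gene of motile cilia. It was higher by 0.73 ± 0.15 in callosum at 12 weeks (limma adjusted p = 0.00126), where 9.06% of all genes were higher. Ccdc39 went against its list there, whose median difference was -0.30. At 12 + 4 in hippocampus the medians of these lists were 0.89 and 0.30, against -0.01 over all genes.

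**Figure D4:**
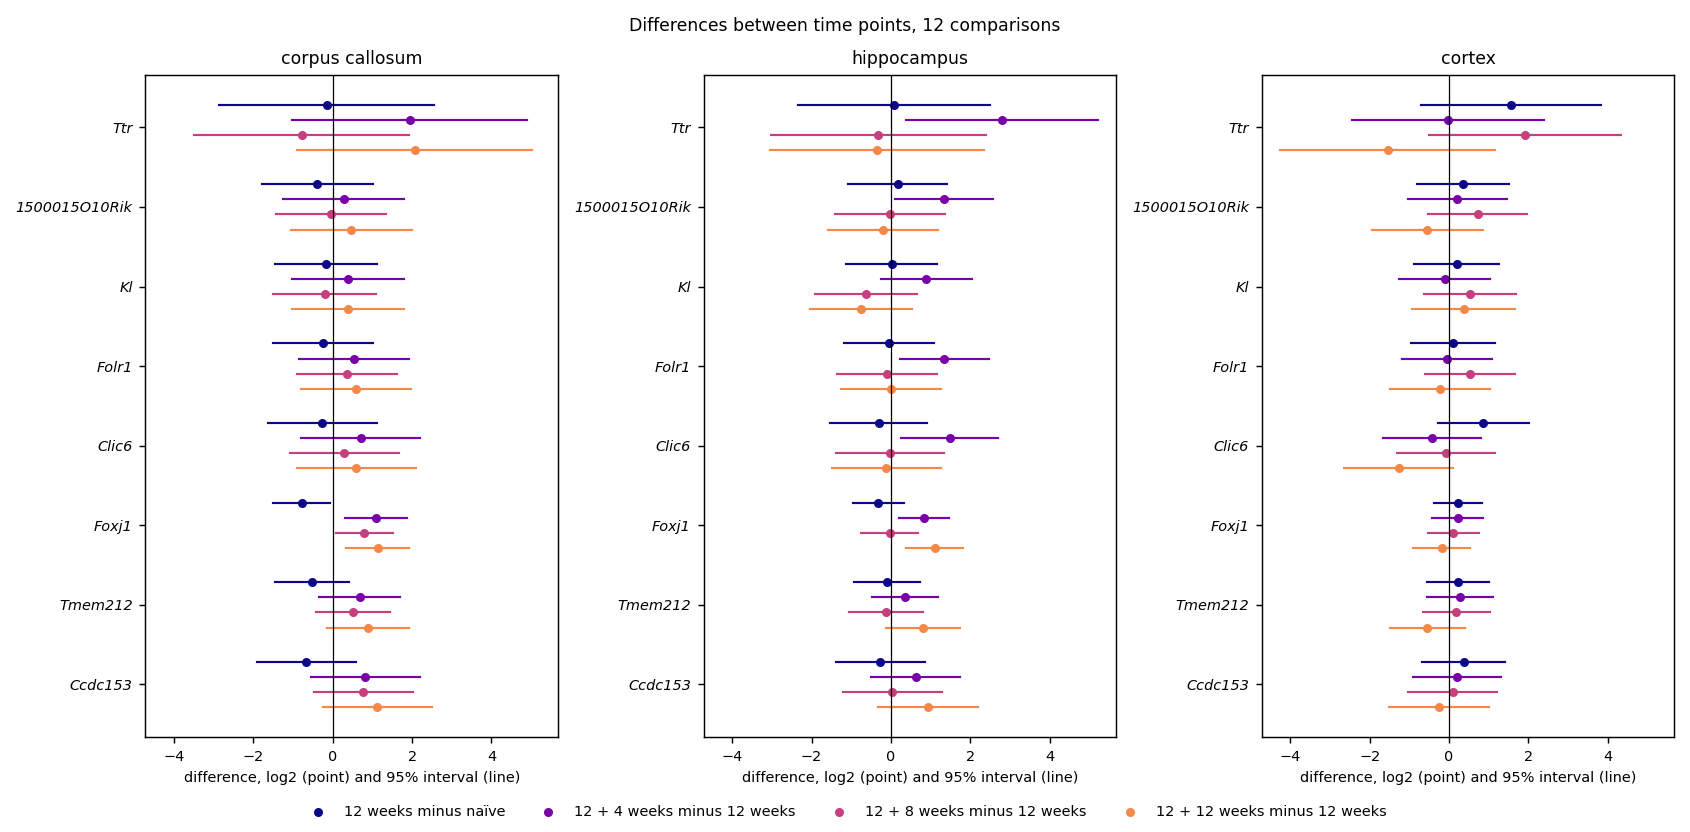
Difference between time points (x axis, log2, with its 95% interval as a line) for each of the 8 genes in callosum, hippocampus and cortex, coloured by comparison. Of the 8 genes, Ttr has the widest intervals (in hippocampus at 12 + 4, from 0.37 to 5.21) and Foxj1 the narrowest.

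Naïve libraries were used to ask how far the regions differ. Kl was 2.87 ± 0.56 lower in callosum than in hippocampus (limma adjusted p = 0.00041) and the 1 gene of 8 to pass, where 17.7% of all genes did. Ttr differed by -2.79 ± 1.18 (limma adjusted p = 0.107). Every callosal library lay below every hippocampal one for Ttr, Kl and Clic6, as for 19.7% of all genes. Against cortex, callosum was higher in 4 of 8 genes (43.1% of all genes passed in either direction): 1500015O10Rik by 1.46 ± 0.57, Ccdc153 by 1.36 ± 0.51, Tmem212 by 0.97 ± 0.38 and Foxj1 by 0.83 ± 0.29, with limma adjusted p of 0.0387, 0.0323, 0.0401 and 0.0223. For 1500015O10Rik, and for 20.4% of all genes, every callosal library was above every cortical one. Groups overlapped for the 3 ependymal genes, since naïve callosal replicate 3 lay below the cortical libraries or among them. Without that library the differences were 2.46 ± 0.39 for Ccdc153, 1.76 ± 0.31 for Tmem212, 1.32 ± 0.28 for Foxj1 and 1.83 ± 0.64 for 1500015O10Rik (limma adjusted p of 1.68e-05, 5.2e-05, 0.000408 and 0.0239, where 39.3% of all genes passed), and without callosal naïve replicate 1 they were 0.57, 0.44 and 0.44 for the 3 ependymal genes in the same order. None of the 4 passed without callosal naïve replicate 1, without replicate 2, without cortical naïve replicate 1, or after quantile normalization, while 2 and 1 did without cortical naïve replicates 2 and 4.

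Hippocampus was higher than cortex in 5 of 8 genes, where 40.6% of all genes passed: Ttr by 3.34 ± 1.11, Kl by 2.42 ± 0.53, Ccdc153 by 1.499 ± 0.51, 1500015O10Rik by 1.49 ± 0.57 and Tmem212 by 1.04 ± 0.38 (limma adjusted p of 0.0165, 0.000507, 0.0199, 0.0369 and 0.0305). Every hippocampal library was above every cortical one for these 5 and Folr1, as for 23.9% of all genes. Only Kl passed without hippocampal naïve replicate 3, without that library and 12 weeks replicate 1, without the 8 hippocampal libraries with intermediate sex-linked genes, or without cortical naïve replicate 1. Without cortical naïve replicates 2 or 4, or hippocampal naïve replicate 2, 3 of the 8 passed. Of the further choroid plexus genes, 6 of 27 were higher in hippocampus than in cortex, a share near the 20.9% of all genes, among them Sostdc1 (1.28 ± 0.41), Calml4 (1.22 ± 0.32), Cldn2 (1.14 ± 0.46) and Krt18 (1.09 ± 0.29), and 4 were lower in callosum than in hippocampus, Car12 (-1.86), Sostdc1 (-1.23), Igfbp2 (-0.999) and Msx1 (-0.93), where 8.84% of all genes were lower. Hippocampal naïve replicate 3 was high for this list, and these differences were not recomputed without it. Between callosum and cortex 0 of the 27 were higher in callosum (21.7% of all genes) and 2 were lower (21.4% of all genes), Car12 (-1.15) and Igfbp2 (-0.81). Of the 32 ependymal and cilium genes, 13 were higher in hippocampus than in cortex, with Capsl (1.30), Sntn (1.09), Fam183b (1.08) and Rsph9 (1.00) the largest, and 11 were higher in callosum than in cortex, with Sntn (0.90), Rsph9 (0.84), Spag17 (0.79) and Mia (0.79), beside the same 20.9% and 21.7% of all genes. By the study's methods cortex was sequenced in shorter reads on another instrument than the other regions, so region and sequencing run cannot be told apart against cortex.

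In the acute callosal libraries, whose values are log2 of normalized counts with no centring, all 8 genes were present in every library. The sources conflict on which acute library is which. The groups used here follow the study's supplementary table, which holds the same values under group names, whereas the sample labels give the same 7 columns in another order, in which the library named here as the first of 5 + 1 is a 3-week one. The median of 8 oligodendrocyte genes was 9.94, 8.44 and 9.14 in the 3 libraries named here as 3 weeks, 12.27, 11.67 and 11.91 in those of 5 + 1 and 11.82 in the naïve one. In the labels' order the same values were 8.44, 9.14 and 12.27 at 3 weeks, 11.67, 11.91 and 11.82 at 5 + 1 and 9.94 in the naïve library, so the 3-week libraries all lay below the others in the first order and did not in the second. These values were not used to choose the order. Ttr was at 14.68 in the naïve library, 14.69, 14.26 and 14.55 at 3 weeks, and 15.74, 14.71 and 15.19 at 5 + 1. Its values spanned a 2.8-fold range over the 7 libraries, against 17.7-fold in chronic callosum and 236-fold in hippocampus, scales that were set separately. Foxj1 was at 8.46, then 8.41, 7.88 and 8.50, and 9.96, 8.31 and 8.79 in the same order. Ccdc153 was at 6.82, then 6.70, 5.44 and 6.48, and 7.75, 6.35 and 7.11. The first 5 + 1 library was the highest of the 7 for Ttr, 1500015O10Rik (9.16), Folr1 (8.39), Clic6 (8.99), Foxj1, Tmem212 (6.43) and Ccdc153, and Kl, at 8.66 to 9.04, was the exception. That library also had the highest medians of hippocampal (7.54, against 6.22 to 6.68) and thalamic marker genes (8.70, against 6.93 to 8.66), and their part in its values was not tested. The SD between libraries of 1 group was 0.69 for Ccdc153, 0.65 for Foxj1, 0.40 for Ttr and 0.17 for Kl, against a median of 0.28 over all genes, and 26.5% of genes had a larger SD than Ttr.

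No gene of the 8 passed at 3 weeks or at 5 + 1 against the 1 naïve library (0% and 0.00688% of all genes), or at 5 + 1 against 3 weeks (0% of all genes). At an unadjusted p under 0.05 the counts were 0, 0 and 2, beside 4.6%, 5.67% and 24.2% of all genes. Those 2 were Ttr (0.71 ± 0.27) and 1500015O10Rik (0.68 ± 0.26, limma adjusted p of 0.195 and 0.194), for both of which every 5 + 1 library was above every 3-week library (20.9% of all genes) and above the naïve one (30.5% of all genes). At 3 weeks Clic6 and Ccdc153 were below the naïve library in all 3 libraries, as 30.7% of all genes were. With the columns named as in the sample labels, 5 + 1 against 3 weeks gave 0.0084 ± 0.39 for Ttr, 0.06 ± 0.38 for 1500015O10Rik and -0.26 ± 0.50 for Foxj1, against 0.76 for Foxj1 in the order used here, and 0 of the 8 passed (limma adjusted p = 1 for each), so the values by group above hold for 1 of the 2 orders only. Of 26 further choroid plexus and 30 further ependymal genes tested, 0 passed in the 3 acute comparisons.

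**Figure D5:**
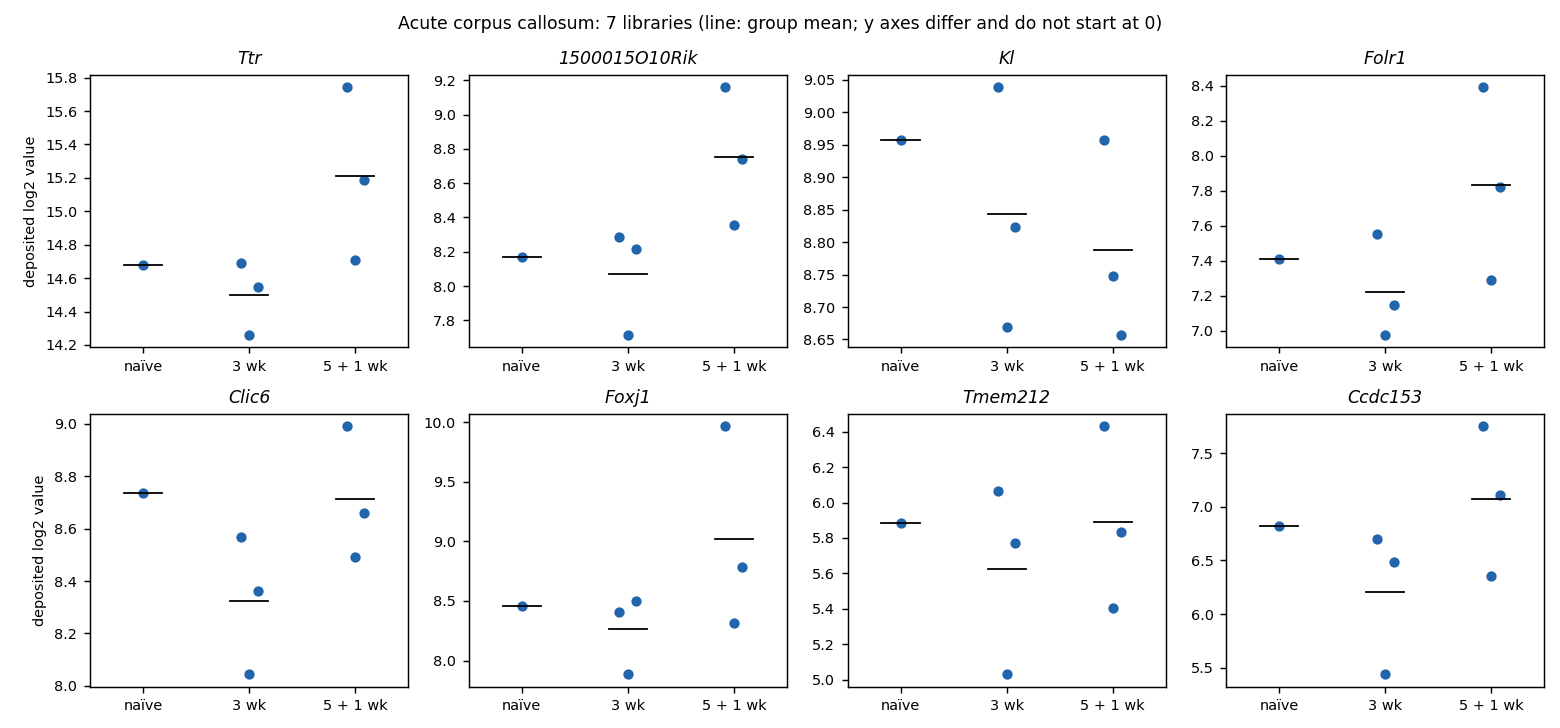
Deposited log2 value (y axis, with its own range in each panel and not starting at 0) of the 8 genes in 7 acute callosal libraries, by group as the supplementary table names them, with a line at each group mean. Ttr lies between 14.26 and 15.74, and the first 5 + 1 library is the highest of the 7 in every panel but that of Kl.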

How the data were processed

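Bulk RNA-seq of 40 chronic and 7 acute libraries was used. The authors aligned reads with TopHat2 2.0.13 to GRCm38 (mm10), normalized with DESeq2 and deposited log2 values, centred per gene in the chronic tables and uncentred in the acute table. Read counts were not used here, and without them depth per library and counting error cannot be given. Per table, 27 rows whose gene names had become dates or numbers were left out. A chronic gene was tested if no more than 10 of its 40 values equalled its lowest one, and an acute gene if its mean was at least 10 on the linear scale.

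Groups were compared with limma 3.58.1 (R 4.3.3) on the deposited log2 values, 1 fit for the 40 chronic libraries and 1 with an intensity trend for the acute ones, with Benjamini-Hochberg adjustment over all genes tested and a threshold of 0.05. In the chronic fit each gene had 1 SD for all regions. Where the SD within a region was larger, SE and p there may be too small, and where it was smaller, too large. The spread of fed groups stood in for that of the 1 acute naïve library. Fits were tested on simulated data. Correlations used 100000 permutations. Named genes were all 8 genes, the 10 most like Ttr and Foxj1, and up to 4 called genes of each list with the largest difference. The genes and lists were chosen with earlier results of these data known. By the labels all libraries were sequenced alike, whereas by the study's methods cortical and acute libraries had shorter reads on another instrument. Alternatives were other filters, quantile or median scaling, library weights, robust or untrended variance, sex as a covariate, a replicate block, a fit of each region alone, each library left out, and, chosen after seeing the data, 3 sets of doubtful libraries left out.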

Additional observations from a re-analysis of the deposited data

Results flagged for a closer look

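At 12 + 12 against 12 weeks, 3 of the 8 genes lay apart in opposite directions in different regions, every library of one region above and every library of the other below those at 12 weeks. Between callosum and cortex 11% of all genes did so, and between hippocampus and cortex 13.1%. For Ttr the callosal difference exceeded the cortical one by 3.62 ± 1.96 (SE, log2; limma interaction adjusted p = 0.307). For Clic6 callosum exceeded cortex by 1.85 ± 0.99 (limma adjusted p = 0.301). For Tmem212 callosum exceeded cortex by 1.43 ± 0.68 (limma adjusted p = 0.236) and hippocampus exceeded cortex by 1.35 ± 0.65 (limma adjusted p = 0.208). None of these 4 interactions passed, where 3.88% (callosum and cortex) and 5.99% (hippocampus and cortex) of all genes did. Each rests on 2 libraries at 12 + 12 in each region, among them hippocampal replicate 1 and cortical replicate 2, whose hippocampal markers departed from their region. Without the 4 such libraries, a choice made after seeing the data that left 1 library each at 12 + 12 in hippocampus and cortex, assumed to vary like the other groups, the interactions were 3.03 ± 2.18 for Ttr, 1.90 ± 1.13 for Clic6, and 1.32 ± 0.78 and 1.09 ± 0.83 for Tmem212 (limma adjusted p of 0.442, 0.339, 0.339 and 0.506), where 2.76% (callosum and cortex) and 0.152% (hippocampus and cortex) of all genes passed.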

How the results depend on the processing

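Over the alternatives, 288 counts of called genes were recomputed, of which 260 stayed within 1.5 times the main count and 28 did not. Of 2304 recomputed differences of single genes, 52 lost a call, 21 gained one and 0 reversed while called. With library weights 1 gene passed in each of the 4 callosal comparisons of time points, in hippocampus at 12 + 4 and 12 + 12 (1 each, Foxj1 throughout), 2 in cortex at 12 + 8, and 1 at 3 weeks in the acute libraries (Clic6). With quantile normalization 1 gene passed in callosum at 12 + 4 and at 12 + 12 and in hippocampus at 12 + 12, and the naïve comparisons gave 2 (callosum and hippocampus), 0 (callosum and cortex) and 2 (hippocampus and cortex), against 1, 4 and 5. A fit of each region alone gave 3 in hippocampus at 12 + 12. Without the 8 hippocampal libraries with intermediate sex-linked genes, or without the pair with shared values, 1 passed between naïve hippocampus and cortex, and without the 8 the SD was 1.11 for Ttr, 0.48 for 1500015O10Rik, 0.35 for Folr1 and 0.49 for Clic6. Of all genes, library weights called 31%, 9.07%, 10.5% and 6.39% in callosum, 1.27% and 14.9% in hippocampus, 23.3% in cortex and 19.1% at 3 weeks, and quantile normalization called 4.66%, 6.34% and 7.15%, then 25%, 41.5% and 44.9% in the naïve comparisons.

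With 1 library left out, counts ranged from 0 to 3 in callosum at 12 weeks, from 0 to 4 between naïve callosum and cortex, from 1 to 5 between naïve hippocampus and cortex, and from 1 to 1 between naïve callosum and hippocampus. The other 14 comparisons stayed at 0. The correlation of Ttr and Foxj1 on residuals was -0.681 in callosum and 0.775 in hippocampus, and that of Ttr and Folr1 in cortex was 0.385 without the 2 farthest libraries. The cause of these changes was not tested. Correlations without the 8 hippocampal libraries were not run, since 5 remained.

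With the replicate block, 0 genes passed in each of the 12 chronic comparisons of time points and at acute 5 + 1 against 3 weeks, as without it. For the acute block, with numbers from the supplementary table and 6 fed libraries, the SD was 0.22 for Ttr, 0.13 for 1500015O10Rik, 0.0886 for Kl, 0.19 for Folr1, 0.0567 for Clic6, 0.12 for Tmem212 and 0.15 for Ccdc153. Without it the SDs were 0.40, 0.36, 0.17, 0.44, 0.26, 0.52 and 0.69, and Foxj1 is not in this list. These genes were listed because their SD moved with the block, so the list was chosen by its own outcome and no conclusion is drawn from it. The block left few residual degrees of freedom, and most of these genes were highest in the same library, so they are not separate signs of pairing. Over all genes the correlations of the 3 acute pairs were 0.098, 0.349 and 0.002, only 1 of them over 0.1, so the numbers were not taken to pair the libraries. In the chronic libraries median correlations of same-numbered pairs were 0.01, -0.008 and 0.032 in callosum, hippocampus and cortex, with 8 of 21, 6 of 23 and 6 of 26 pairs over 0.1. No paired analysis was possible for the naïve regions, which share no animal label, or against the 1 acute naïve library because its group has no second number.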
